A study of Mus musculus with 12 samples.

Results

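The BCL2 family holds the genes that set the mitochondrial threshold for apoptosis, and 10 of its genes were followed here: Bcl2a1a, Bcl2a1b, Bcl2a1d, Bcl2, Bcl2l1, Mcl1, Bax, Bak1, Bcl2l11 and Bcl2l15. They were taken by symbol from the count table, in which all 10 are present among 18514 genes, and all 10 passed the filter on low counts together with the rest of the 15484 genes tested. The libraries were made from colorectal tissue of male C57BL/6 mice, 1 mouse each, with 3 libraries in each of 4 groups. Ctrl mice received neither treatment, Ctrl_Swim mice swam daily, Model mice received azoxymethane, a mutagen that starts colon tumours, followed by repeated cycles of dextran sodium sulfate in the drinking water, which injures the mucosa (AOM/DSS), and Model_Swim mice received AOM/DSS and swam. Per the study's methods swimming training began before AOM and went on until the end, and mice that did not swim were placed in shallow water. How much tumour a sample from an AOM/DSS mouse held is not stated, and each value is an average over all cell types of the tissue. The libraries held 17256953 to 19451055 counts, and levels are given as CPM, the share of a library's counts on a fixed scale, after TMM scaling.

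In the textbook account the family has proteins of 3 kinds. Pro-survival proteins (BCL2, BCL-XL from Bcl2l1, MCL1 and the A1 proteins from the Bcl2a1 genes) hold back the effectors BAX and BAK, which otherwise form pores in the outer mitochondrial membrane and release cytochrome c. BH3-only proteins such as BIM, from Bcl2l11, bind the pro-survival proteins, and some engage the effectors directly. A1 is best known from haematopoietic cells, in particular granulocytes, mast cells, macrophages and activated lymphocytes, whereas Bak1, Mcl1 and Bcl2l1 are broadly used, also by the gut epithelium.

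The mouse has several copies of the A1 gene on chromosome 9, and how alike they are limits how their counts can be read. In the GRCm38.p6 build Bcl2a1a lies at chr9:88956920-88962416 on the plus strand, Bcl2a1b at chr9:89199273-89207838 on the plus strand and Bcl2a1d at chr9:88723288-88731850 on the minus strand. For each gene 1 GENCODE transcript was compared. Identity was 98.2% between Bcl2a1a and Bcl2a1b (15 mismatches over 817 aligned bases). It was 98.8% between Bcl2a1a and Bcl2a1d (10 mismatches over 819) and 99.1% between Bcl2a1b and Bcl2a1d (7 mismatches over 817). Of all stretches of 150 bases, 28.2% in Bcl2a1a, 41.9% in Bcl2a1b and 30.3% in Bcl2a1d also occur, letter for letter, in the transcript of another gene, and of stretches of 100 bases 43.5%, 56.8% and 54.7%. The split of reads between the copies is therefore uncertain, and the summed cluster is given beside each gene. Bcl2a1c, a further copy that shares some of these stretches, has no row among the genes counted and could not be read. Bcl2a1d also overlaps an antisense gene, Gm10634, and Bcl2a1b overlaps the gene model Gm29094 on the same strand. The bases just before the transcription start are shown because the copies were high in the same libraries, and they are nearly one sequence. They are RefSeq promoter sequence on GRCm38.p6, written 5′ to 3′ on the strand of each gene, and end just before the first base that RefSeq or GENCODE counts as transcribed. They cover chr9:88956670-88956899 (plus strand, 230 bases) for Bcl2a1a, chr9:89199023-89199208 (plus strand, 186 bases) for Bcl2a1b and chr9:88731915-88732100 (minus strand, 186 bases) for Bcl2a1d, and the capitals mark an ETS-type motif of the kind bound by PU.1, a transcription factor of myeloid and B cells.
Bcl2a1a: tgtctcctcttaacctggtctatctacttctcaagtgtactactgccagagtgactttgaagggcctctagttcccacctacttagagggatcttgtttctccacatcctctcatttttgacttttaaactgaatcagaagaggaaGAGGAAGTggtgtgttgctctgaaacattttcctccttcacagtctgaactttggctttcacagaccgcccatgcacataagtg
Bcl2a1b: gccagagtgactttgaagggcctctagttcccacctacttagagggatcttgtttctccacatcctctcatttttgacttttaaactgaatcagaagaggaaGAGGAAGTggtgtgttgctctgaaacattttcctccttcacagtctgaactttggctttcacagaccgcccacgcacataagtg
Bcl2a1d: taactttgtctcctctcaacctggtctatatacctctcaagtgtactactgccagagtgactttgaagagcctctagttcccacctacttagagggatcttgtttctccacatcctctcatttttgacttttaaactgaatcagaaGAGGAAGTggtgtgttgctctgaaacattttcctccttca
The aligned windows of Bcl2a1a and Bcl2a1b were 99.5% identical, with 1 mismatch over 186 bases. Those of Bcl2a1a and Bcl2a1d were 94.6% identical, with 4 mismatches and 6 gap columns, and those of Bcl2a1b and Bcl2a1d 95.1% identical over the 142 columns they share. On both strands the letters GAGGAAGT occur 1 time in each window, and in 2.4% (802 of 32851) of the 250-base stretches before all RefSeq starts. The letters TGANTCA, a loose form of the AP-1 motif with any base at N, occur 1 time in each window and in 6.7% of all such stretches. In all 3 windows the match reads TGAATCA, so neither TGACTCA nor TGAGTCA is present. The letters GGANTTTCC, of the NF-kB kind, are in none of the 3 windows and in 1.1% of all stretches. The motifs do not overlap in these windows, the windows are a little shorter than the stretches they are set beside, and a match is a description of the letters only.

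How high each gene stood in the untreated colon was compared per length, as FPKM, a read level that is divided by transcript length and library depth. Bak1 stood highest in Ctrl, with a mean of 81.0 FPKM ± 2.54 (SD, n = 3), followed by Mcl1 with 69.4 ± 3.89, and their ranges did not overlap. Bax followed at 14.5 ± 1.17 FPKM and Bcl2l1 at 5.77 ± 0.648. Bcl2a1b (3.02 ± 0.297) and Bcl2 (2.86 ± 0.175) could not be ordered, since their ranges overlapped. The same held for Bcl2a1d (1.28 ± 0.196) and Bcl2l11 (1.05 ± 0.131), and for Bcl2a1a (0.497 ± 0.297) and Bcl2l15 (0.452 ± 0.301). Over all 12 libraries the highest FPKM was 1.30 times the lowest for Bak1, 1.31 times for Bax, 1.49 times for Mcl1, 1.54 times for Bcl2l1 and 1.58 times for Bcl2. It was 2.94 times for Bcl2l11, 3.41 for Bcl2a1b, 5.47 for Bcl2a1d, 7.36 for Bcl2a1a and 75.9 for Bcl2l15. The abundant members thus varied little between mice, and Bcl2l15, which varied most, rests on 2 to 160 counts a library.

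**Figure D1:**
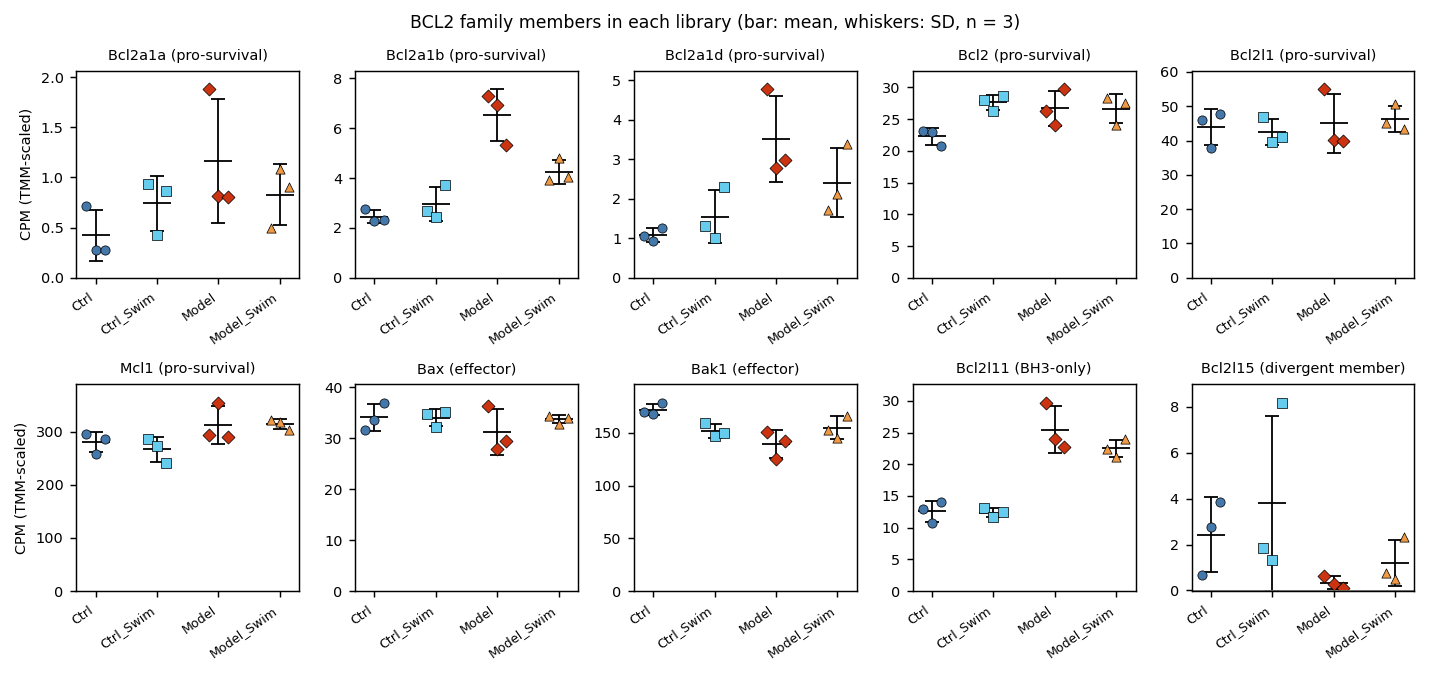
Level of each of the 10 members in CPM (vertical axis, from 0) in the 4 groups, with 1 point per library, the mean as a bar and the SD as whiskers (n = 3). On average the Bcl2a1 genes and Bcl2l11 are highest in Model, Bcl2l15 is lowest there, and Bcl2l1, Mcl1 and Bax overlap between Model and Ctrl.

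A pair of Model libraries stood apart from the rest by their reads of pancreatic genes. A list of 20 genes of pancreatic acinar cells summed to 206 to 708 CPM in 10 libraries, and to 56016 CPM in Model 1 and 27279 CPM in Model 3. Values without both of them are therefore given for part of the genes, and they rest on 1 Model library that is assumed to vary like the other groups. The labelled tissue was checked with 15 markers of colon epithelium, which summed to at least 14123 CPM in every library.

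The first question was what AOM/DSS did to the family in mice that did not swim (Model against Ctrl). Bcl2a1b, Bcl2a1d and Bcl2l11 rose between 2.03-fold and 3.24-fold, Bak1 fell to 0.811 of its Ctrl level, and Bcl2l15 fell to 0.145. Of the 10 members 5 passed an adjusted p of 0.05 (edgeR's quasi-likelihood test, Benjamini-Hochberg adjustment over all genes tested), where 32.7% of all genes did. The 3 that rose stand beside 16.5% of all genes called higher, and the 2 that fell beside 16.2% called lower. Without Model 1 and Model 3 there were also 5 calls, namely Bcl2a1b, Bcl2l11, Bak1, Mcl1 (log2 0.32, edgeR adjusted p = 0.0291) and Bax (-0.31, adjusted p = 0.0422). With the acinar level as a covariate 3 were called, Bcl2a1b, Bcl2l11 and Bak1, and without Ctrl 3 there were 3 calls, Bcl2a1b, Bcl2a1d and Bcl2l11. With the study's added condition of a 2-fold change, 4 members stayed (Bcl2a1b, Bcl2a1d, Bcl2l11 and Bcl2l15), against 7.43% of all genes. The 3 Model libraries did not overlap the 3 Ctrl libraries in CPM for 7 of 10 members, where 44.2% of all genes had no overlap. Bcl2l15 is among the 7 by the scaling only. For this gene Ctrl 1 and Model 1 both held 12 counts, and in FPKM they crossed (0.121 and 0.128). The median log2 fold change was 0.21 over the members and 0.0055 over all genes. The smallest p that an exact permutation of 3 against 3 libraries can give is 0.1, so the calls rest on the spread that the fit shares across genes.

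Among the pro-survival genes the Bcl2a1 cluster held the changes. Bcl2a1b measured 2.76, 2.29 and 2.31 CPM in Ctrl and 7.29, 6.92 and 5.34 CPM in Model. The lowest Model library was far above the highest Ctrl library. The log2 fold change was 1.41 (SE 0.21, adjusted p = 0.00131 in edgeR). Bcl2a1d measured 1.05, 0.927 and 1.26 CPM in Ctrl and 4.77, 2.78 and 2.98 CPM in Model, again without overlap. It rose by a log2 fold change of 1.70 (SE 0.39, edgeR adjusted p = 0.00814). Bcl2a1a, the scarcest copy with 5 to 35 counts a library, measured 0.718, 0.273 and 0.275 CPM in Ctrl and 1.88, 0.817 and 0.804 CPM in Model. Its log2 fold change of 1.46 (SE 0.56) did not pass the test (edgeR adjusted p = 0.0653), although the groups did not overlap. It was called in 3 of 24 alternative analyses, namely without Ctrl 1 (log2 2.09, adjusted p = 0.0396) and in limma on FPKM with either added constant (adjusted p = 0.0427 and 0.0330). Without Model 1 and Model 3 the edgeR adjusted p was 0.00462 for Bcl2a1b, whereas Bcl2a1d was no longer called (log2 fold change 1.34, adjusted p = 0.0703).

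The sum of the 3 copies does not depend on how reads were divided between them, though how reads with several alignments were counted is not given in the sources used here. Reads shared with Bcl2a1c or Gm29094, neither of which has a row of counts, can still affect the sum. The sum measured 4.53, 3.49 and 3.85 CPM in Ctrl and 13.9, 10.5 and 9.13 CPM in Model, or 3.95 ± 0.527 against 11.2 ± 2.48 (SD, n = 3). It rose 2.83-fold (log2 1.50, SE 0.24, edgeR adjusted p = 0.00160, with the sum fitted as 1 row). Bcl2a1b gave 48.4% to 65.8% of the summed counts in the 12 libraries, Bcl2a1d 23.2% to 40.8% and Bcl2a1a 7.14% to 18.9%.

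The other pro-survival genes were close to their Ctrl levels. Bcl2, whose product is abundant in lymphocytes, measured 23.1, 23.0 and 20.8 CPM in Ctrl and 26.3, 24.1 and 29.7 CPM in Model. The groups did not overlap, but the difference of 0.26 on the log2 scale (SE 0.09) just missed the threshold (edgeR adjusted p = 0.0547), and it passed in 8 of 25 alternative analyses, among them those without Model 2 (log2 0.35, adjusted p = 0.0258), Ctrl_Swim 4 (0.0475), Model_Swim 1 (0.0485) or Model_Swim 2 (0.0367). Bcl2l1 measured 46.1, 37.8 and 47.8 CPM in Ctrl and 54.9, 40.3 and 39.9 CPM in Model, with overlap. Its log2 difference was 0.04 (95% interval -0.26 to 0.33), and its sign changed with the libraries used. Mcl1 measured 296, 259 and 286 CPM in Ctrl and 293, 355 and 290 CPM in Model. Its log2 difference was 0.16 (95% interval -0.05 to 0.37, edgeR adjusted p = 0.214). It was called in 4 of 25 alternative analyses, the 3 limma fits on FPKM (log2 0.27, adjusted p from 0.0317 to 0.0408) and the fit without Model 1 and Model 3.

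Of the pore-forming effectors among the members, Bak1 fell and Bax did not pass the test. Bak1 measured 170, 168 and 179 CPM in Ctrl and 151, 125 and 143 CPM in Model. All 3 Model libraries were below all 3 Ctrl libraries, and the log2 fold change was -0.30 (SE 0.08, edgeR adjusted p = 0.0145). The difference is small, and it missed the threshold without Ctrl 3 (adjusted p = 0.0727), without Model 2 (adjusted p = 0.0650) and in limma on the FPKM values (adjusted p = 0.0580). Bak1 overlaps Ggnbp1 on the opposite strand, and how the counting treated strand is not given in the sources used here. Bax measured 31.7, 33.7 and 37.0 CPM in Ctrl and 36.5, 27.9 and 29.4 CPM in Model, with overlap, and differed by -0.13 on the log2 scale (95% interval -0.34 to 0.09, edgeR adjusted p = 0.341). Without Model 1 alone Bax was called (log2 -0.24, edgeR adjusted p = 0.0384), as it was without Model 1 and Model 3. The ratio of Bax to Bcl2, an index often given for the balance of effector and guardian, was computed from FPKM within each library. It was 4.54, 4.84 and 5.88 in Ctrl and 4.57, 3.83 and 3.28 in Model, so that Model 1 lay inside the Ctrl range. The mean log2 ratio differed by -0.39 between Model and Ctrl (exact two-sided permutation p = 0.2).

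Bcl2l11, which encodes the BH3-only protein BIM, showed the clearest change of the family. It measured 12.9, 10.7 and 14.0 CPM in Ctrl and 29.7, 23.9 and 22.8 CPM in Model. Each Model library was above every Ctrl library, and the log2 fold change was 1.02 (SE 0.13, edgeR adjusted p = 0.000596). It was called in all 25 alternative analyses run, with adjusted p-values up to 0.00863. Bcl2l15, a divergent member of the family known from the gastrointestinal tract, measured 0.662, 2.78 and 3.85 CPM in Ctrl and 0.643, 0.272 and 0.115 CPM in Model. The groups met at the border, since Ctrl 1 and Model 1 both held 12 counts. The log2 fold change of -2.79 (SE 0.97) was called at an edgeR adjusted p of 0.0462, and 11 of 23 alternative analyses did not call it. Among them were those without Ctrl 2, Ctrl 3, Ctrl_Swim 2, Model 2, Model 3, Model_Swim 1 or Model_Swim 2 (adjusted p up to 0.141). The fit with the acinar level as a covariate did not call it either.

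Swimming under AOM/DSS (Model_Swim against Model) is the comparison the study was built for, and none of the 10 members was called by edgeR, where 0.0710% of all genes were. By DESeq2 0 members were called as well. At an unadjusted p under 0.05 there was 1 member, Bcl2a1b, and 2102 of all genes. Bcl2a1b measured 3.91, 4.79 and 4.03 CPM in Model_Swim, below the 5.34 to 7.29 CPM of the Model libraries, and it was the only member without overlap, against 16.9% of all genes. The log2 difference was -0.62 (95% interval -1.08 to -0.16, edgeR adjusted p = 0.261), and -0.69 without Model 1 and Model 3 (adjusted p = 0.219). For the summed cluster the Model_Swim libraries measured 6.11, 7.99 and 8.32 CPM, each below the lowest Model library, and the log2 difference was -0.58 (95% interval -1.09 to -0.07, edgeR adjusted p = 0.317). Lymphocyte markers differed in the same direction, with a median log2 difference of -1.22 over 10 B cell markers, none of which overlapped between the groups, and of -0.45 over 9 T cell markers. The median was -0.31 over 7 dendritic cell markers and -0.11 over 13 macrophage and monocyte markers. It went the other way, at 0.17 over 13 neutrophil markers and 0.06 over 9 mast cell markers. Over 15 colon epithelium markers the median was 0.23, and 7 of them had no overlap between the groups, against 16.9% of all genes. None of these markers was called in Model_Swim against Model, and their part in the Bcl2a1 difference was not tested. Bcl2l11 measured 22.5, 21.1 and 23.9 CPM in Model_Swim, inside and just below the Model range, with a log2 difference of -0.18 (95% interval -0.45 to 0.09). Bcl2l15 measured 0.771, 0.489 and 2.33 CPM, with a log2 difference of 1.77 whose interval ran from -0.37 to 3.91. Bcl2a1a (log2 difference -0.49, 95% interval -1.65 to 0.67) and Bcl2a1d (-0.54, 95% interval -1.36 to 0.27) overlapped between these groups. For Bcl2, Bcl2l1, Mcl1, Bax and Bak1 the differences lay between -0.0020 and 0.15 on the log2 scale. The Bax to Bcl2 ratio was 4.01, 4.50 and 4.08 in Model_Swim, within the range of the Model libraries (exact two-sided permutation p = 0.5).

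In mice that swam, AOM/DSS was compared with its own control (Model_Swim against Ctrl_Swim). Bcl2l11 was the single member called, where 5.18% of all genes were. It measured 13.0, 11.7 and 12.5 CPM in Ctrl_Swim and 21.1 to 23.9 CPM in Model_Swim, a log2 fold change of 0.86 (SE 0.13, edgeR adjusted p = 0.00632). With the replicate number as a block it was no longer called (adjusted p = 0.0663), and the 1.82-fold change is under the study's 2-fold condition. Bcl2a1b (log2 difference 0.52, SE 0.21, edgeR adjusted p = 0.180) and Mcl1 (0.24, SE 0.09, adjusted p = 0.171) had no overlap between these groups but were not called, and 3 of 10 members had no overlap against 32.4% of all genes. Bcl2a1d differed by 0.64 (95% interval -0.19 to 1.47), Bak1 by 0.03 (95% interval -0.15 to 0.20) and Bcl2l15 by -1.66 (95% interval -3.55 to 0.24). The differences of Bcl2a1a, Bcl2, Bcl2l1 and Bax lay between -0.05 and 0.16. The summed cluster measured 4.93, 3.88 and 6.90 CPM in Ctrl_Swim, so that Ctrl_Swim 4 lay above Model_Swim 1, and its log2 difference was 0.51 (95% interval -0.01 to 1.03, edgeR adjusted p = 0.228).

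Swimming without AOM/DSS (Ctrl_Swim against Ctrl) gave 0 called members by edgeR and by DESeq2, against 0.969% of all genes in edgeR, and 2 members at an unadjusted p under 0.05. These were the 2 members without overlap, against 27.4% of all genes. Bcl2 measured 27.9, 26.3 and 28.7 CPM in Ctrl_Swim and 20.8 to 23.1 CPM in Ctrl, a log2 difference of 0.31 (95% interval 0.10 to 0.52, edgeR adjusted p = 0.146). Bak1 measured 159, 147 and 149 CPM in Ctrl_Swim and 168 to 179 CPM in Ctrl, a log2 difference of -0.18 (95% interval -0.35 to -0.01, edgeR adjusted p = 0.267). The other 8 members overlapped, with log2 differences from -0.07 (Mcl1) to 0.81 (Bcl2a1a). The Bax to Bcl2 ratio was 4.11, 4.05 and 4.06 in Ctrl_Swim, all below the lowest Ctrl library, and the exact two-sided permutation p was 0.1, the smallest that 3 against 3 libraries allow. The test of whether the effect of AOM/DSS differed between swimming and non-swimming mice (the interaction) called 0 members and 0% of all genes in edgeR, and 0 members in DESeq2. At an unadjusted p under 0.05 there were 3 members and 2947 of all genes. They were Bcl2a1b (log2 -0.89, edgeR adjusted p = 0.161), Bak1 (0.33, adjusted p = 0.161) and Bcl2 (-0.31, adjusted p = 0.235), and the summed cluster had -0.99 (adjusted p = 0.161). Without Model 1 and Model 3 the interaction was called for Bak1 (0.50, edgeR adjusted p = 0.0324). These comparisons share groups with one another, so a single unusual library enters several of them.

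**Figure D2:**
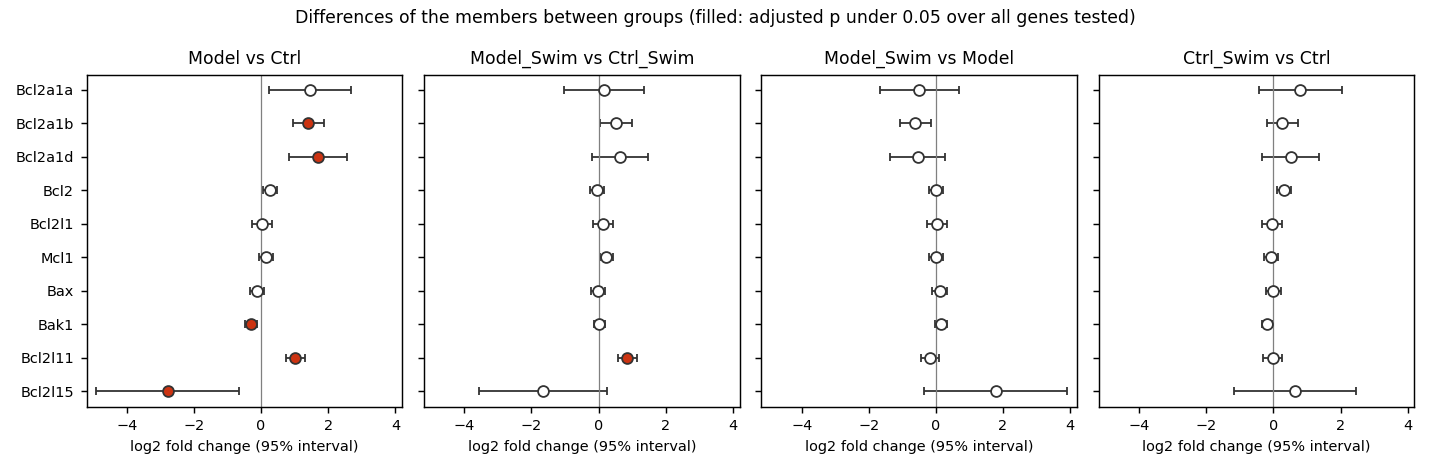
Log2 fold change (horizontal axis) of the 10 members in 4 comparisons, with 95% intervals from edgeR and filled points where the adjusted p over all genes is under 0.05. There are 5 filled points in Model against Ctrl, 1 (Bcl2l11) in Model_Swim against Ctrl_Swim and none in the comparisons of swimming.

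The remaining genes of the family were read from a list of 16, of which 15 are in the table and 13 passed the filter (Bcl2l10 and Hrk were too low). In Model against Ctrl 4 rose, 2 fell and 7 did not pass the test, a share to be read beside the 32.7% of all genes called. All but 1 of the 4 that rose encode BH3-only proteins. Pmaip1, which encodes NOXA, a ligand of MCL1 and A1, measured 11.8, 13.7 and 12.5 CPM in Ctrl and 30.1, 27.1 and 16.4 CPM in Model, with a log2 fold change of 0.95 (SE 0.19, edgeR adjusted p = 0.00446). Bmf, another BH3-only gene, measured 11.5, 13.8 and 15.2 CPM in Ctrl and 40.5, 21.0 and 18.3 CPM in Model (log2 0.98, SE 0.29, edgeR adjusted p = 0.0270). Model 1 stood well above the other Model libraries for Bmf. Bik, a BH3-only gene of the endoplasmic reticulum, measured 1.93 to 2.75 CPM in Ctrl and 3.50 to 5.34 CPM in Model (log2 0.96, SE 0.28, edgeR adjusted p = 0.0225). Bnip3, a mitochondrial gene known from hypoxia and mitophagy, rose by 0.37 (SE 0.13, edgeR adjusted p = 0.0431). The 2 that fell were Bad, the BH3-only protein controlled by growth factor signalling, with 33.5 to 35.9 CPM in Ctrl and 25.9 to 27.8 CPM in Model (log2 -0.34, SE 0.07, edgeR adjusted p = 0.00635), and Bcl2l13, a mitophagy receptor, at -0.20 (SE 0.06, adjusted p = 0.0300). Without Ctrl 1, or without Ctrl 2, only Pmaip1 and Bad of these 13 were called, and without Model 2 Pmaip1, Bmf and Bad. With the acinar level as a covariate only Pmaip1 (log2 1.08, edgeR adjusted p = 0.0199) and Bik (1.23, adjusted p = 0.0410) of these 13 were called. In Model_Swim against Ctrl_Swim 1 of 13 was called, where 5.18% of all genes were. It was Pmaip1, with a log2 fold change of 0.74 (SE 0.19, edgeR adjusted p = 0.0499). That call stood at the threshold. It was present in DESeq2 (adjusted p = 0.00757), in edgeR on the compared groups alone (0.0134), without Model 1 (0.0302), without Model 3 (0.00506), without both (0.00406) and with the Bcl2a1 genes summed. It was absent in all other alternatives, among them the fits without any 1 library of Ctrl, Ctrl_Swim or Model_Swim, or without Model 2. In both comparisons of swimming and in the interaction none was called by edgeR with all libraries. Without Model 3, Pmaip1 was called lower in Model_Swim than in Model (log2 -0.61, edgeR adjusted p = 0.0177). Of the BH3-only genes Bcl2l11, Pmaip1, Bmf and Bik were thus called higher in Model and Bad lower in the main fit. Not all of these calls held in the alternatives. Bbc3 (0.24, SE 0.24) and Bid (0.06, SE 0.09) did not pass the test.

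**Figure D3:**
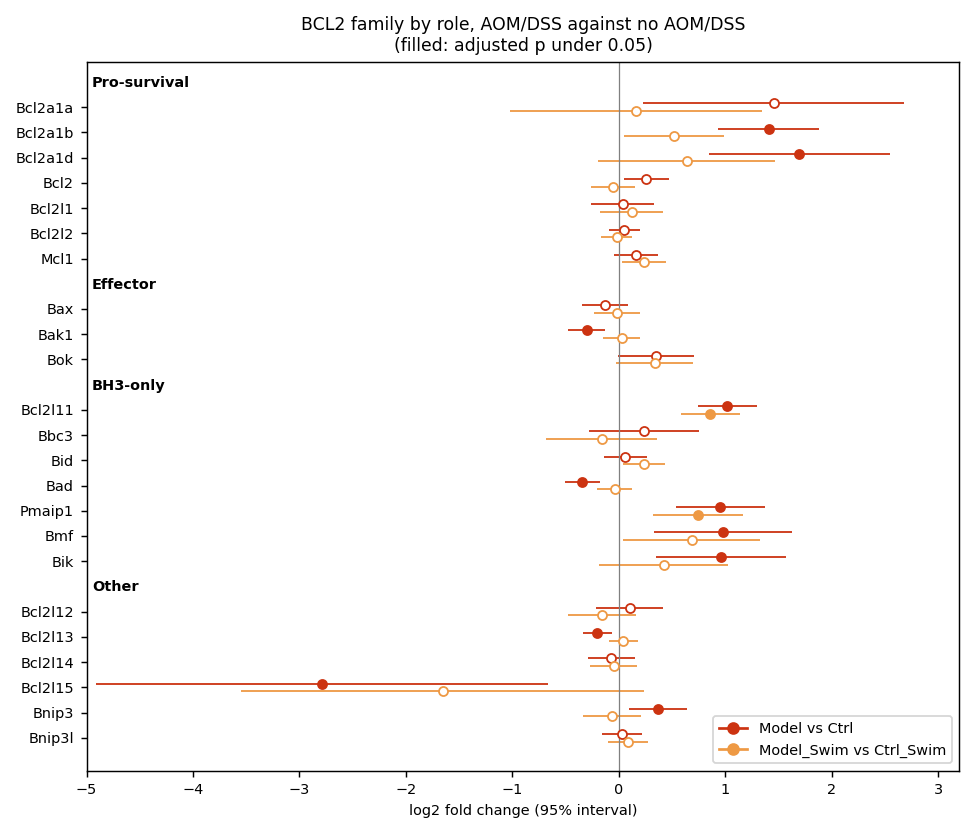
Log2 fold change (horizontal axis) with 95% intervals of the 10 members and the 13 other family genes tested, grouped by role, in Model against Ctrl and in Model_Swim against Ctrl_Swim (filled: adjusted p under 0.05). In Model the filled points to the right are Bcl2a1b, Bcl2a1d, 4 BH3-only genes and Bnip3, and those to the left are Bak1, Bad, Bcl2l13 and Bcl2l15.

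Downstream of the family stand the caspases and the proteins that mitochondria release, read from a list of 30 genes of which all 30 were tested. In Model against Ctrl 4 rose, 8 fell and 18 did not pass the test, where 16.5% of all genes were called higher and 16.2% lower. Among the called genes the 5 with the largest changes were Endog, a mitochondrial nuclease (log2 -0.80, SE 0.15, edgeR adjusted p = 0.00369), Apaf1, the scaffold of the apoptosome (0.70, SE 0.15, adjusted p = 0.00638), Vdac3, a channel of the outer membrane (-0.63, SE 0.10, adjusted p = 0.00188), Cycs, which encodes cytochrome c (-0.61, SE 0.11, adjusted p = 0.00240), and Birc3, an inhibitor of apoptosis induced by NF-kB (0.60, SE 0.15, adjusted p = 0.0118). In Model_Swim against Ctrl_Swim 1 of 30 was called, where 5.18% of all genes were. It was Fadd, the adaptor of the death receptors (log2 -0.33, edgeR adjusted p = 0.0281). In both comparisons of swimming none was called by edgeR.

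Markers of leukocytes and of epithelium moved with these groups, and in whole tissue a change in the number of cells of a type and a change in RNA per cell cannot be told apart. The summed level of 14 neutrophil markers was 19.9 to 32.7 CPM in Ctrl, 26.4 to 37.6 in Ctrl_Swim, 34.4 to 435 in Model and 64.6 to 639 in Model_Swim. Most counts of that list, over all libraries, are of Ltf, which encodes lactoferrin and is also known from epithelium, at 0.773 to 547 CPM. The sum was also taken without Ltf, an alternative chosen after seeing the data. It was then 18.6 to 31.96 CPM in Ctrl, 24.4 to 28.0 in Ctrl_Swim, 33.4 to 169 in Model and 47.2 to 199 in Model_Swim. Of the whole list, Ltf included, 13 markers were tested, and 9 of these were called higher in Model than in Ctrl. This count and those of the leukocyte lists below stand beside 16.5% of all genes called higher. The defining genes Mmp8, Ngp, Camp and Trem1 were at 0 in 1 to 5 libraries. The 13 macrophage and monocyte markers summed to 471 to 480 CPM in Ctrl, 414 to 525 in Ctrl_Swim, 856 to 931 in Model and 735 to 888 in Model_Swim, with 10 called higher and 1 lower in Model than in Ctrl. T cell markers summed to 27.5 to 34.0 CPM in Ctrl, 36.1 to 80.9 in Ctrl_Swim, 64.9 to 97.5 in Model and 55.5 to 64.8 in Model_Swim, with 7 of 9 called higher in Model than in Ctrl. B cell markers summed to 43.0 to 90.5 CPM in Ctrl, 59.1 to 188 in Ctrl_Swim, 175 to 207 in Model and 59.4 to 95.3 in Model_Swim, with 9 of 10 called higher in Model than in Ctrl. Of the 9 mast cell markers 3 were called higher in Model than in Ctrl, and the median log2 fold change of the list was 1.53. Most counts of that list, over all libraries, are of Kit, also known from the pacemaker cells of the gut, and without it the sum was 7.69 to 62.7 CPM in Ctrl, 6.38 to 10.5 in Ctrl_Swim, 23.0 to 111 in Model and 43.0 to 118 in Model_Swim. Colon epithelium markers summed to 24077 to 26636 CPM in Ctrl, 21193 to 27878 in Ctrl_Swim, 14123 to 18515 in Model and 21860 to 22224 in Model_Swim. Of these markers 8 of 15 were called lower and 1 higher in Model than in Ctrl, where 16.2% of all genes were called lower. The part of these cell types in the results for the members was not tested.

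Single libraries were then set side by side for the neutrophil markers and the Bcl2a1 sum. Model 3 had 9.13 CPM of the Bcl2a1 sum. Its neutrophil markers without Ltf summed to 33.4 CPM, close to the 31.96 CPM of the highest Ctrl library. Ltf in Model 3, at 0.976 CPM, lay within the Ctrl range of 0.773 to 1.31 CPM. Cxcr2, 1 of the 14 markers, was at 1.66 CPM there, above the 0.110 to 0.164 CPM of Ctrl. Cxcr2 is also among the genes picked below for likeness to Bcl2a1d, so its height in this library is no separate observation. Model_Swim 3 had the most neutrophil markers without Ltf, 199 CPM, and 8.32 CPM of the Bcl2a1 sum, below all Model libraries. The standing of a library thus depends on which neutrophil markers are read. Over the 12 libraries, which share their groups, the log2 Bcl2a1 sum had a Pearson r of 0.87 with the mean log2 level of the neutrophil list, Ltf included, 0.84 with T cells, 0.79 with macrophages, 0.73 with B cells and -0.76 with colon epithelium. For Bcl2l11 r was 0.89 with macrophages, 0.89 with mast cells and 0.84 with neutrophils, and for Bak1 it was 0.71 with colon epithelium. Among the members themselves r was 0.90 between Bcl2a1b and Bcl2a1d, 0.89 between Bcl2l11 and Bcl2a1b and 0.87 between Bcl2l11 and Bcl2a1d.

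**Figure D4:**
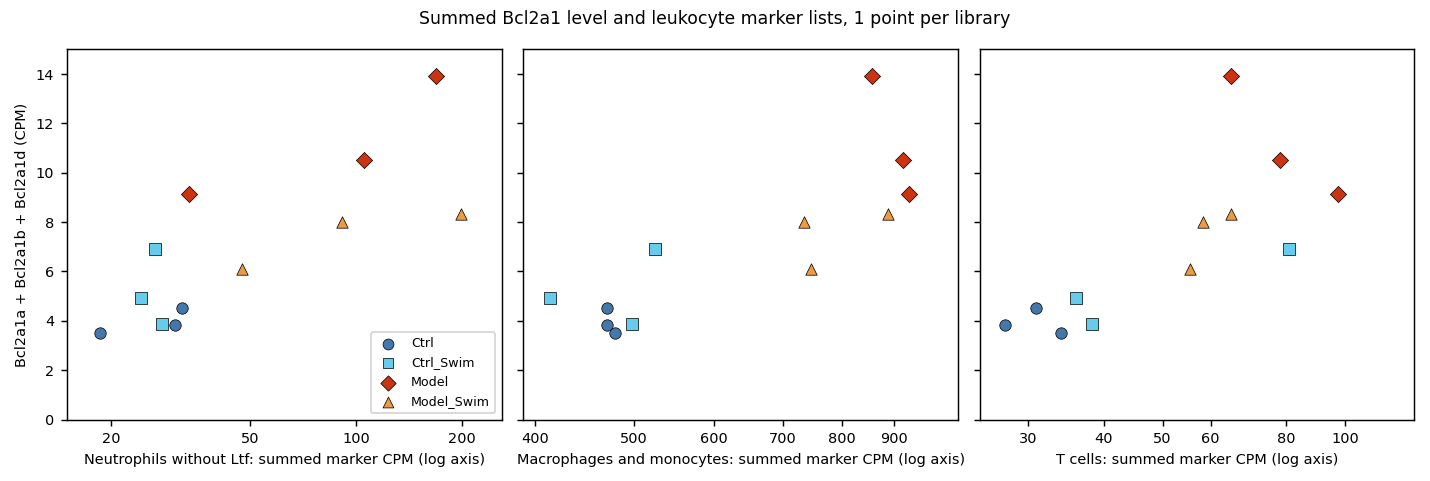
Summed level of Bcl2a1a, Bcl2a1b and Bcl2a1d (vertical axis, CPM) against the summed markers of neutrophils without Ltf, of macrophages and of T cells (horizontal axes, CPM, log scale), 1 point per library. The Model libraries lie highest on the vertical axis, and their macrophage marker sums, 856 to 931 CPM, lie above the 414 to 525 CPM of all Ctrl and Ctrl_Swim libraries.

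The genes whose level over the 12 libraries was most like the members' were found among 14392 genes with a mean of at least 1 CPM. For the Bcl2a1 sum they were Slpi (Pearson r 0.97), an antiprotease of inflamed epithelium and neutrophils, Ltbp2 (0.96), Cd47 (0.96), Tmem123 (0.96) and Dusp2 (0.95). Slpi measured 4.78 to 7.56 CPM in Ctrl and 36.3 to 77.7 CPM in Model. For Bcl2a1b alone they were Pde4b (0.97), Slpi (0.96), Col7a1 (0.96), Zfp518b (0.96) and Fcho1 (0.96). For Bcl2a1d alone they were Cmtm3 (0.96), Limd2 (0.94), Cd47 (0.94), Il3ra (0.94) and Cxcr2 (0.94). Cxcr2, the chemokine receptor of neutrophils and the last of these 5, measured 0.110 to 0.164 CPM in Ctrl and 1.66 to 4.34 CPM in Model. For Bcl2l11 they were Itgav, Tmem2, Sh3pxd2b, Epb41l2 and Rab31, all at r of 0.98. Itgav, an integrin subunit, measured 48.6 to 58.5 CPM in Ctrl, 88.6 to 106 in Model and 81.5 to 84.9 in Model_Swim. These are descriptions over libraries that differ by group, and the genes were picked for their likeness.

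For Bcl2l15 the 5 most similar genes were Lgals2 (r 0.97), Olfm4 (0.91), Mptx2 (0.91), Anpep (0.91) and Defa21 (0.90), which are epithelial genes, and Defa21 encodes a defensin of Paneth cells, a cell type of the small intestine. In all 5, as in Bcl2l15, Ctrl 1 was the lowest Ctrl library and Ctrl_Swim 4 the highest Ctrl_Swim library. The 5 genes were picked for a pattern like that of Bcl2l15, so this sharing is no separate finding. Lgals2 measured 11.6, 30.6 and 55.3 CPM in Ctrl, 19.6, 16.5 and 68.2 in Ctrl_Swim, 6.86, 4.03 and 1.95 in Model and 8.20, 9.14 and 18.0 in Model_Swim. Bcl2l15 itself was likewise highest in Ctrl_Swim 4, at 8.18 CPM beside 1.86 and 1.33 CPM in the other libraries of that group. Defa21 measured 5.08 CPM in Ctrl 1, against 63.1 and 25.8 CPM in the other Ctrl libraries, and 0.0574 to 4.99 CPM in Model. The level of these genes thus differed several-fold between mice of 1 group.

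**Figure D5:**
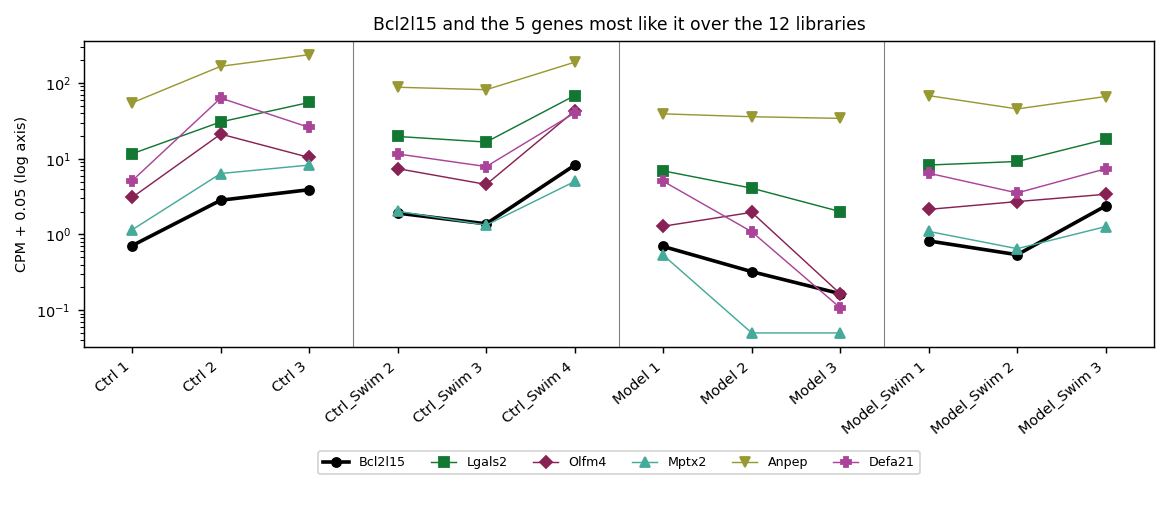
Level of Bcl2l15 and the 5 genes most like it in each library (vertical axis, CPM + 0.05, log scale; lines join libraries of 1 group and imply no order). Bcl2l15 has its lowest mean in Model, at 0.115 to 0.643 CPM, a range that also holds Model_Swim 2 at 0.489 CPM, and it is highest in Ctrl_Swim 4, at 8.18 CPM.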

How the data were processed

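RNA-seq was done on colorectal tissue of 12 mice, 3 in each of 4 groups. Per the labels the libraries were made with a TruSeq Stranded mRNA kit after extraction with a mirVana kit, while the methods name TRIzol. Reads were trimmed (Trimmomatic) and mapped to GRCm38.p6, the build in the submitters' processing notes, with HISAT2 by the authors, who deposited raw counts per gene from HTSeq-count and FPKM values from Cufflinks. Versions, read length, strand setting and the handling of reads with several alignments are not given in the sources used here. No column of values was left unused (0). Precision is limited by depth: 3 counts, the limit that a count of 0 allows, equal 0.153 to 0.172 CPM after TMM scaling, and counting error only is covered.

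Counts were scaled by TMM, filtered with filterByExpr and fitted over all 4 groups with edgeR 4.0.16 (R 4.3.3) by the quasi-likelihood test, with Benjamini-Hochberg adjustment over 15484 genes and a threshold of 0.05. The common biological coefficient of variation was 0.207. DESeq2 1.42.0 and limma 3.58.1 on log2(FPKM + 1) and log2(FPKM + 0.1) were alternatives. The procedure was tested on simulated data. No libraries of a group agreed within sampling noise (smallest chi-square per gene 6.86). The summed Bcl2a1 row replaced its 3 genes in a fit of its own. The Bax to Bcl2 ratio was tested by exact permutation, two-sided. Likeness was Pearson's r of log2 CPM with a prior count of 2. Transcripts of GENCODE M21 were aligned with Biopython 1.88, and all 10 members matched a RefSeq promoter entry by symbol.

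The members, the family list, the apoptosis list and the marker lists were chosen with earlier results of these data known. All members are named, with the called genes of the family list and up to 5 called genes of the apoptosis list by size. The 5 most similar genes are named for Bcl2a1b, Bcl2a1d, the Bcl2a1 sum, Bcl2l11 and Bcl2l15, and not for the other members. Library numbers are shared between groups, and same-numbered libraries had correlations of -0.26 to 0.56 over 15 pairs. Pairs with different numbers were not set beside them, so these values cannot decide whether the libraries are paired. Nothing in the labels ties same-numbered libraries together, and the unblocked fit was used.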

Additional observations from a re-analysis of the deposited data

How the results depend on the processing

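The count of 5 called members in Model against Ctrl ranged from 3 to 6 when each library was left out in turn, and was 3 with the acinar level as a covariate. The single call in Model_Swim against Ctrl_Swim became 0 with the replicate number as a block and 0 under the 2-fold condition, and it was 1 without each library in turn. The 0 calls of the interaction became 1 without Model 1 and Model 3 together (Bak1), where fewer libraries were fitted. The cause of the other shifts was not tested. Bcl2l1 in Model against Ctrl, at 0.04 on the log2 scale, changed sign with the acinar covariate (-0.12), without Model 1 and Model 3 together (-0.14), without Ctrl 2 (-0.04) and without Model 1 (-0.12), ranged from -0.12 to 0.13 without each library in turn, and was called in none of these. The log2 Bax to Bcl2 ratio of Model_Swim against Ctrl_Swim changed sign without Model_Swim 2 (-0.0093, exact permutation p = 0.6) and ranged from there to 0.074 without each library in turn.

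Bcl2a1b in Model against Ctrl was called in 24 of 24 alternatives, Bcl2l11 in 25 of 25, Bcl2a1d in 22 of 24, Bak1 in 18 of 25 and Bcl2l15 in 12 of 23, each with an unchanged sign. Over the 24 pairs of member and comparison outside Model against Ctrl with an unadjusted p of at least 0.05, 88 of 587 alternative values had the other sign and 0 were called (lowest adjusted p 0.0796). The replicate block gave 4 called members in place of 5 in Model against Ctrl, losing Bcl2l15 (adjusted p = 0.0601), and 3 other family genes (Pmaip1, Bik and Bad) in place of 6. Whether the numbers pair the libraries is not known, so it is open which of the 2 fits is the better measure. The other family genes called in Model against Ctrl ranged from 0 (2-fold condition) to 7 (without Model 3).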
